A study of Mus musculus with 9 samples.

Results

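The translation initiation factor genes were examined in 4 types of mouse germ cell. These genes encode the proteins that bring the ribosome, the initiator tRNA and the mRNA together at the start codon, with the inhibitors and kinases that act on them. The members were every gene symbol beginning with Eif1 to Eif6, leaving out the Argonaute genes formerly named Eif2c and the genes Eif4e1b and Eif4enif1. This gave 57 of the 34617 gene symbols, with no symbol on more than 1 of the 37980 rows. Of the 57, 53 were named as genes and 4 as pseudogenes. A level of at least 1 FPKM (fragments per kilobase of transcript, scaled to the number of mapped reads, a level per length) in at least 1 cell type was reached by 52 members, and by 16135 symbols in all.

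The study followed female germ cells across development with regard to the activity of the X chromosome. The 4 cell types were E12.5 PGCs (primordial germ cells, 3 libraries), FGSCs (female germline stem cells, 2 libraries), GV oocytes (germinal vesicle stage, 2 libraries) and MII oocytes (metaphase of the second meiotic division, 2 libraries). E12.5 PGCs came from XX genital ridges of embryonic day 12.5, and the ovaries that gave FGSCs were 3 to 5 days old. Both were sorted for GFP in Mvh-cre; ROSA mT/mG mice, in which Cre driven by the germ cell gene Mvh (Ddx4) switches a membrane reporter to GFP. The GV oocytes were taken to be the fully grown oocytes of the study's methods, collected from C57BL/6 mice aged 6 weeks after injection of PMSG, a gonadotropin. The collection of MII oocytes is not described in the sources used here, and the labels give female C57BL/6 mice for every library.

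For every gene the deposited tables give a single FPKM value in each cell type, which the authors pooled over the libraries. No spread between libraries could be measured, and no test was made for any difference below. A gene was counted as higher or lower when log2(FPKM + 1) differed by at least 1 (2-fold), a description of size only. The depth behind a value is unknown here, because the tables hold no counts, and the depths in the study's supplement were not used here. In such bulk samples, fewer cells of a type and less RNA per cell cannot be told apart. The cDNA was primed with oligo(dT), so less RNA and shorter poly(A) tails cannot be told apart either.

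The labels were checked against marker genes. Where 4 values are listed, they follow the order of development, from E12.5 PGCs to FGSCs, GV oocytes and then MII oocytes. The 5 germ cell markers summed to 1398, 657, 4495 and 11099 FPKM, of which Dppa3 alone gave 1288, 462, 4211 and 10134 FPKM. Ddx4 itself was at 64.0, 59.0, 31.9 and 17.2 FPKM, lower in the oocytes. The germ cell gene Dazl was at 34.2, 75.003, 82.6 and 900.4 FPKM. The 7 oocyte markers summed to 15.2, 14.4, 9939 and 26164 FPKM, with Zp3, a protein of the egg coat, at 6.80, 6.49, 4780 and 790.2 FPKM. The 8 erythroid markers summed to 16044, 6232, 39.4 and 1.38 FPKM. All 8 reached 1 FPKM in both of the sorted cell types, where Hbb-y, an embryonic globin, was at 3378 and 3273 FPKM, and 7 of the 8 were listed at 0 in MII oocytes. Hbb-y was thus about as high in FGSCs, from ovaries 3 to 5 days old, as in E12.5 PGCs, and its source there was not tested. The 8 granulosa and pregranulosa markers summed to 123, 234, 60.9 and 73.3 FPKM. In GV oocytes Inha alone gave 43.6 FPKM of this sum, and in MII oocytes Cyp19a1 alone gave 68.2 FPKM, whereas Wt1 was at 61.3, 113, 5.10 and 0.124 FPKM. These 3 and Dppa3 were named after their values had been seen. The 4 cumulus markers summed to 6.92, 1.12, 0.221 and 0.635 FPKM. The 5 endothelium markers summed to 41.8, 44.0, 4.63 and 45.4 FPKM, and in MII oocytes 2 of them reached 1 FPKM. The 4 leukocyte markers summed to 9.64, 8.88, 1.36 and 10.1 FPKM. The part of blood or somatic RNA in the values was not tested in any cell type.

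Initiation on most mRNAs begins when eIF4E binds the cap and eIF4G joins it to the helicase eIF4A and, through eIF3, to the small ribosomal subunit. That subunit carries eIF1, eIF1A, eIF5 and eIF2, which holds the initiator tRNA with GTP, and eIF2B recharges eIF2 after each round. Cells lower initiation mainly through 4E-BPs, which block eIF4E, and through kinases that phosphorylate eIF2 alpha and so inhibit eIF2B. Fully grown oocytes are known to stop transcription and to live on stored mRNAs, which are translated or degraded as meiosis proceeds.

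As a group the initiation factor genes were expressed well above the typical gene in all 4 cell types. The median over the 52 members was 57.7, 54.8, 47.4 and 28.4 FPKM, against 3.62, 4.13, 4.22 and 4.37 FPKM over the 16135 symbols. The spread among members was widest in MII oocytes, with an SD of log2(FPKM + 1) over members of 2.28, 2.12, 2.05 and 2.95 in the same order. In MII oocytes 12 members lay under 5 FPKM and 14 at 100 FPKM or more, whereas the earlier cell types had 8, 7 and 5 members under 5 FPKM. MII oocytes held the lowest value of 26 members and the highest value of 17, so that only 9 of the 52 had neither extreme there. E12.5 PGCs held the highest value of 16 members and the lowest of 4. The SDs and these counts are of values as deposited and were not made over all symbols, so they are not shown to be particular to the members. Of all symbols 70.5%, 70.6% and 59.7% differed at least 2-fold between MII oocytes and E12.5 PGCs, FGSCs and GV oocytes.

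**Figure D1:**
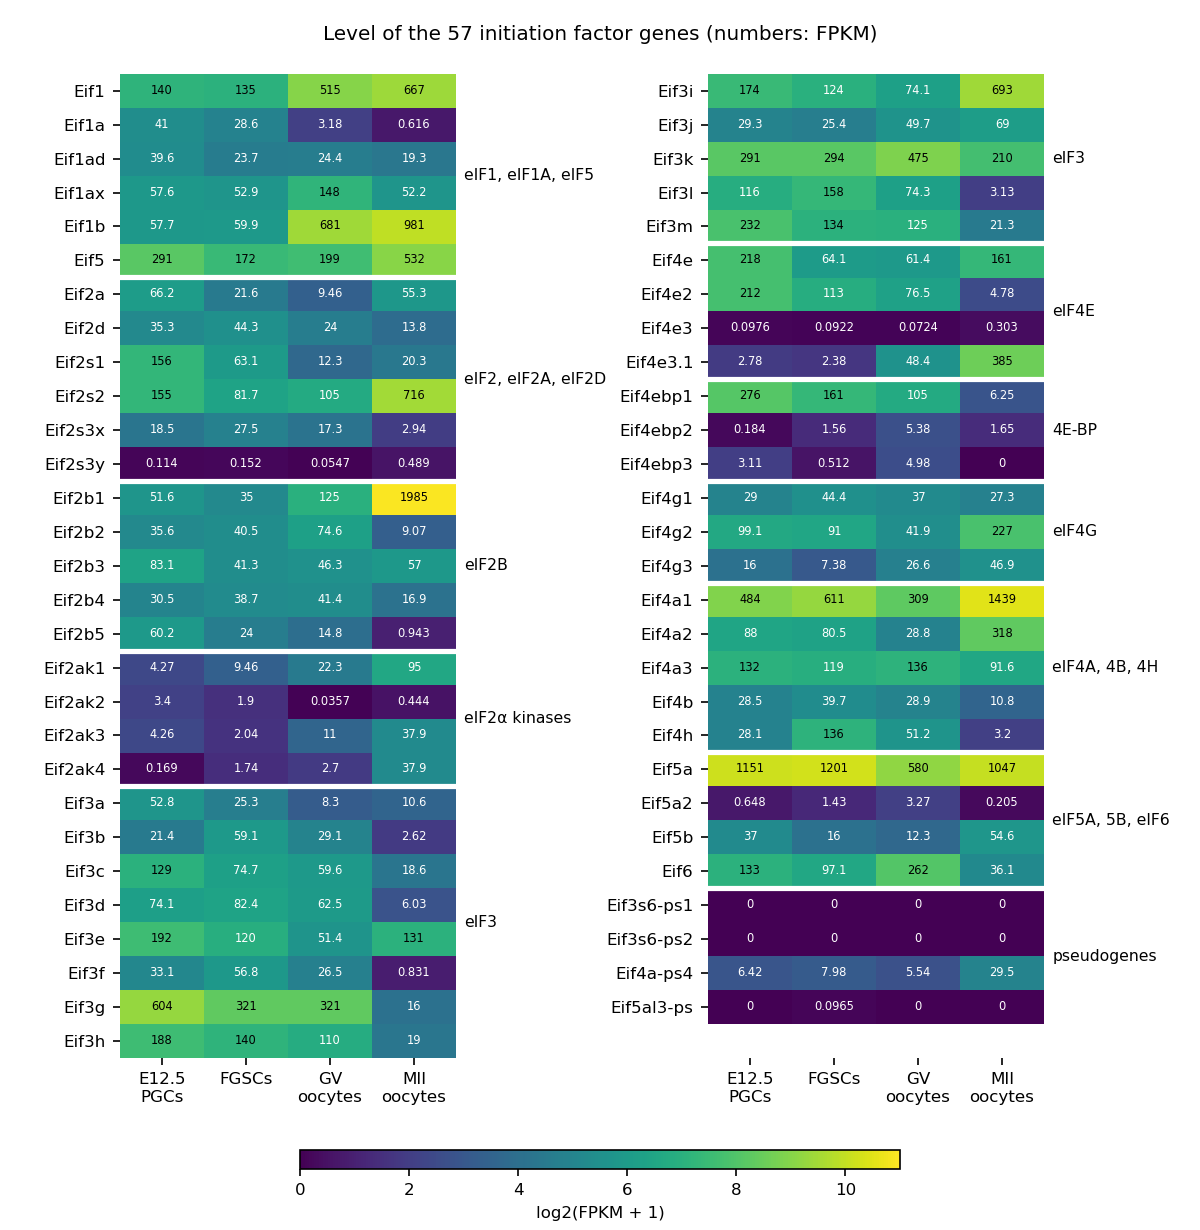
Level of each of the 57 initiation factor genes, by role, in the 4 cell types. Colour is log2(FPKM + 1) and the number in each cell is the FPKM value, 1 pooled value per cell type; the MII oocyte column holds the highest value, Eif2b1 at 1985 FPKM, and the lowest value of 26 of the 52 genes that reached 1 FPKM, such as Eif3f at 0.831 FPKM.

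The FPKM values of all 37980 rows summed to 688500, 417955, 560962 and 1232440. The members took 0.931%, 1.27%, 0.957% and 0.843% of these sums. Scaling every cell type to the same sum moved the log2 ratio of MII over GV oocytes by -1.14 and that of FGSCs over E12.5 PGCs by 0.72. Scaling by the median of ratios moved them by -0.45 and 0.20. These shifts are for ratios of FPKM itself. As 1 FPKM was added after scaling, the log2 ratios of genes at low FPKM moved less.

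Between FGSCs and E12.5 PGCs 40 of the 52 initiation factor genes lay within 2-fold. In FGSCs 4 of 52 members were higher (7.69%, against 20.0% of all symbols) and 8 were lower (15.4%, against 17.0%). The median log2 ratio was -0.18 over the members and 0.00 over all symbols. Scaled to equal sums the counts were 14 higher and 2 lower, beside 34.0% and 8.25% of all symbols, and with the median of ratios 5 and 5, beside 22.8% and 13.5%. The balance of higher and lower thus moved with the scaling for members and for all symbols.

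GV oocytes had more members apart from either earlier cell type. Against E12.5 PGCs 11 members were higher in GV oocytes (21.2%, against 29.5% of all symbols) and 15 were lower (28.8%, against 26.9%), with median log2 ratios of -0.42 over members and 0.02 over all symbols. Against FGSCs 11 members were higher (21.2%, against 24.6%) and 12 lower (23.1%, against 24.5%), with a median of -0.29 against 0.00. Scaled to equal sums, the counts against E12.5 PGCs were 15 higher and 12 lower, beside 35.5% and 24.9% of all symbols, and those against FGSCs were 10 higher and 19 lower, beside 22.4% and 34.9%. As deposited, each share lay within 10 percentage points of the background share.

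MII oocytes stood furthest from the other cell types. Against GV oocytes 16 members were higher in MII oocytes (30.8%, against 33.6% of all symbols) and 23 were lower (44.2%, against 26.1%). The median log2 ratio was -0.37 over members and 0.03 over all symbols as deposited, -1.47 and -0.43 with equal sums, and -0.81 and -0.05 with the median of ratios. Members and all symbols were not matched for level. Their medians were 47.4 and 4.22 FPKM in GV oocytes, and 28.4 and 4.37 FPKM in MII oocytes. The added 1 FPKM damps log2 ratios, and their shifts under scaling, more at low levels. As deposited, the middle 50% of the log2 ratios spanned 3.96 over members and 2.60 over all symbols. Against E12.5 PGCs 16 members were higher (30.8%, against 39.7%) and 22 lower (42.3%, against 30.7%), and against FGSCs 19 were higher (36.5%, against 38.1%) and 23 lower (44.2%, against 32.5%). Among protein-coding genes alone the background for MII over GV oocytes was 33.5% higher and 27.3% lower. Both scalings moved the log2 ratio of MII over GV oocytes, by -1.14 and -0.45, so that a lower call could hardly be lost by them. All 23 members lower in MII than in GV oocytes stayed at least 2-fold lower under both, which is therefore no test of these calls. Of the 16 higher members, whose calls could be lost, 10 stayed at least 2-fold higher under both. Scaled to equal sums, 10 members were higher and 27 lower, beside 21.3% and 39.3% of all symbols. The same scaling gave 11 higher and 30 lower against E12.5 PGCs, beside 32.1% and 37.7% of all symbols, and 8 higher and 33 lower against FGSCs, beside 24.9% and 48.6%. Of the 19 members higher than in FGSCs as deposited, 5 (Eif2a, Eif3j, Eif4a1, Eif4e and Eif4g2) changed sign with a scaling. Of the 52 members 25 share their interval in the tables with another gene, which makes their values less certain, and among the 27 that do not, 5 were higher and 16 lower in MII than in GV oocytes.

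**Figure D2:**
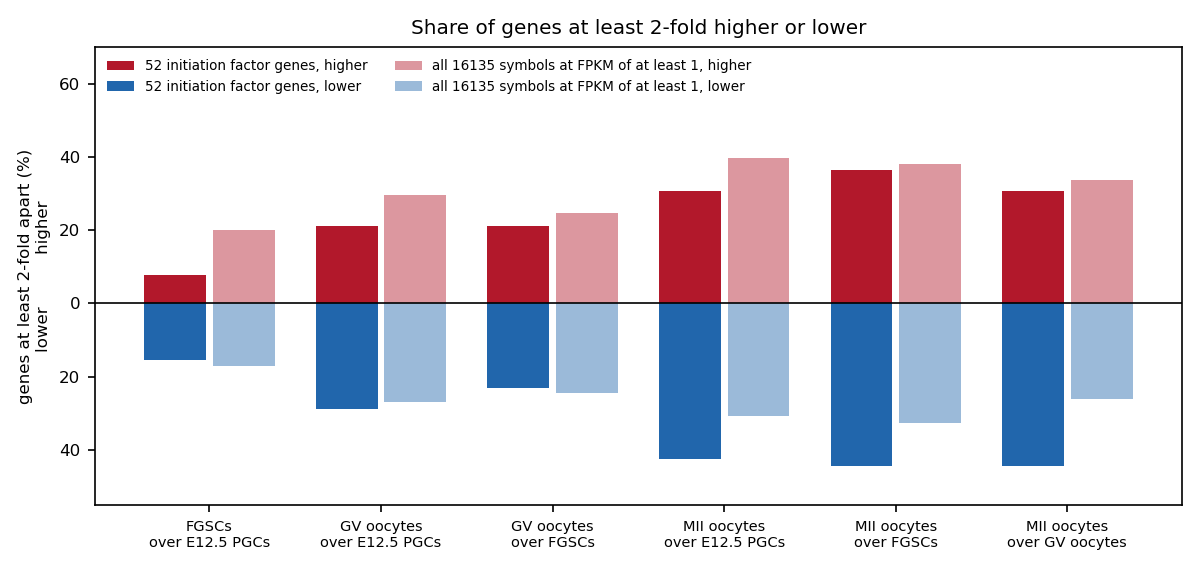
Share of genes at least 2-fold higher (upward bars, red) or lower (downward bars, blue) in 6 comparisons of log2(FPKM + 1). Dark bars are the 52 initiation factor genes and pale bars all 16135 symbols at FPKM of at least 1; the widest gap between dark and pale is for genes lower in MII than in GV oocytes, 44.2% of members and 26.1% of all symbols.

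The promoters of the members were searched for the E-box CACGTG, a palindrome that MYC family factors and others bind, and for the C/EBP-ATF response element TGATGNAA on both strands, a site of ATF4. Windows of 300 bases around the start site, from RefSeq on GRCm38.p6, matched 42 of the 57 members with 52 windows. Eif1a, Eif2b3, Eif3e, Eif3h, Eif3i, Eif4e3, Eif4e3.1, Eif4ebp1, Eif4ebp3, Eif4g2, Eif6 and the 4 pseudogenes had no entry. The E-box stood in 12 of the 52 windows (23.1%), against 7.15% of all 32851 windows and 9.54% of the 13298 windows of symbols at FPKM of at least 1. These 12 windows belonged to 10 genes, of which 2 were higher, 4 lower and 4 within 2-fold in MII relative to GV oocytes. Windows of Eif5a at chr11:69921226-69921525 and chr11:69921337-69921636 overlap and hold the same site, which was therefore counted in each. The response element stood in 1 window (1.92%, against 3.97% of all windows and 2.38% of those of symbols at FPKM of at least 1), that of Eif2s3x. The 6 E-box genes that differed between MII and GV oocytes are shown as 40 bases around the motif in capitals, 5′ to 3′ on the gene's strand, the first 4 from genes lower in MII oocytes and the last 2 from genes higher there. Their positions are chr7:108934330-108934369 (+) for Eif3f, chr7:28981910-28981949 (-) for Eif3k, chr5:134639483-134639522 (-) for Eif4h, chr3:28781118-28781157 (+) for Eif5a2, chr11:69672590-69672629 (-) for Eif4a1 and chr3:138527023-138527062 (+) for Eif4e. The windows of Eif4e and Eif5a2 hold 2 E-boxes each, and the bases around the first are shown. A match is a description of these letters and no measure of binding.
Eif3f: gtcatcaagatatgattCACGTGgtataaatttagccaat
Eif3k: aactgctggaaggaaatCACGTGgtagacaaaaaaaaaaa
Eif4h: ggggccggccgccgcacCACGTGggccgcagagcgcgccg
Eif5a2: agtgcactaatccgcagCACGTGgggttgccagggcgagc
Eif4a1: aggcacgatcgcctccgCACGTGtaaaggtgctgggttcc
Eif4e: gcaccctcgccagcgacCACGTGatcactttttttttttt

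Among the factors of start site recognition, eIF1 genes were high in oocytes and the eIF1A genes changed in their makeup. Eif1, whose protein keeps the scanning ribosome open until it meets the start codon, was at 140, 135, 515 and 667 FPKM in the order of development. Its close relative Eif1b was at 57.7, 59.9, 681 and 981 FPKM. As deposited, both were more than 3-fold higher in either oocyte than in either earlier cell type, with log2 ratios of GV oocytes over FGSCs of 1.92 for Eif1 and 3.49 for Eif1b, and the MII and GV values lay within 2-fold of each other. For Eif1 the log2 ratio of MII oocytes over FGSCs, 2.30 as deposited, came to 0.74 with equal sums, under 2-fold, and to 1.75 with the median of ratios. That of Eif1b stayed at 2.47 or above under both scalings. Eif1b took 29.2%, 30.7%, 57.0% and 59.5% of the sum of the pair, and such a share does not depend on the scaling.

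Eif1ax, the X-linked gene of eIF1A, was at 57.6, 52.9, 148 and 52.2 FPKM across the 4 cell types. Its autosomal relative Eif1a was at 41.0, 28.6, 3.18 and 0.616 FPKM. The share of Eif1a in the summed FPKM of the pair was thus 41.6%, 35.1%, 2.11% and 1.17%. The pair has similar sequences, and reads that fit both can be divided between them in ways the tables do not show. Eif1ad, which encodes a protein with an eIF1A domain, was at 39.6, 23.7, 24.4 and 19.3 FPKM, a 2.05-fold range. Eif5, the GTPase-activating partner of eIF2, was at 291, 172, 199 and 532 FPKM, and its log2 ratio of 1.42 for MII over GV oocytes came to 0.29 with equal sums and 0.96 with the median of ratios.

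The 3 subunits of eIF2, which work in equal numbers, had unlike profiles. Eif2s1, the alpha subunit on which the stress kinases act, was at 156, 63.1, 12.3 and 20.3 FPKM. Eif2s2, the beta subunit, was at 155, 81.7, 105 and 716 FPKM, and Eif2s3x, the X-linked gene of the gamma subunit, at 18.5, 27.5, 17.3 and 2.94 FPKM. In E12.5 PGCs the alpha and beta genes were level with each other, whereas in MII oocytes beta was high, alpha low and gamma lowest, with Eif2s2 244-fold above Eif2s3x there against 6.07-fold in GV oocytes. The interval of Eif2s2 in the tables holds 3 other genes. Eif2s3y, the Y-linked copy, was under 0.5 FPKM in all 4 cell types.

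Eif2a and Eif2d encode factors that can deliver the initiator tRNA without eIF2. Eif2a was at 66.2, 21.6, 9.46 and 55.3 FPKM, lowest in GV oocytes, with a log2 ratio of MII over GV oocytes of 2.43. Eif2d was at 35.3, 44.3, 24.0 and 13.8 FPKM, and its log2 ratio of -0.76 between the oocytes was within 2-fold but came to -1.85 with equal sums.

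Among eIF2, eIF2B and eIF3, the eIF2B genes lay furthest apart in MII oocytes. In FGSCs the 5 genes lay between 24.0 FPKM (Eif2b5) and 41.3 FPKM (Eif2b3), a 1.72-fold range, and in E12.5 PGCs the range was 2.73-fold. In GV oocytes it was 8.48-fold and in MII oocytes 2104-fold, the last over a lowest value under 1 FPKM, where values are least certain. Eif2b1 (ENSMUSG00000029388, chr5:125020221-125029140 of mm9 in the tables), the alpha subunit, which bridges the complex, was at 51.6, 35.0, 125 and 1985 FPKM, and in MII oocytes it was the highest of all 52 members. Its log2 ratio of MII over GV oocytes was 3.97, higher than that of 96.7% of all symbols, and it stayed at 2.84 with equal sums. Eif2b5, the catalytic epsilon subunit, was at 60.2, 24.0, 14.8 and 0.943 FPKM, a log2 ratio of -3.02 between the oocytes. Eif2b2 (beta) was at 35.6, 40.5, 74.6 and 9.07 FPKM, Eif2b4 (delta) at 30.5, 38.7, 41.4 and 16.9 FPKM, and Eif2b3 (gamma) at 83.1, 41.3, 46.3 and 57.0 FPKM. MII oocytes thus had 1 eIF2B gene higher, 3 lower and 1 within 2-fold of GV oocytes. No other gene shares the interval of Eif2b1, Eif2b2 or Eif2b5 in the tables.

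Of the 4 kinases of eIF2 alpha, 3 were highest in MII oocytes. Eif2ak1 (HRI), which responds to heme shortage, was at 4.27, 9.46, 22.3 and 95.0 FPKM. Eif2ak3 (PERK), the kinase of endoplasmic reticulum stress, was at 4.26, 2.04, 11.0 and 37.9 FPKM. Eif2ak4 (GCN2), which senses uncharged tRNA, was at 0.169, 1.74, 2.70 and 37.9 FPKM. All 3 were more than 2-fold higher in MII than in GV oocytes, but with equal sums only Eif2ak4 kept this, at a log2 ratio of 2.45, and Eif2ak1 and Eif2ak3 came to 0.94 and 0.62. Eif2ak2 (PKR), the kinase of double-stranded RNA, went apart from the others, at 3.40, 1.90, 0.0357 and 0.444 FPKM. Together the kinases summed to 12.1, 15.1, 36.1 and 171 FPKM.

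The 13 subunit genes of eIF3, the large scaffold of the small ribosomal subunit, were moderately spread in the earlier cell types and far apart in MII oocytes. The highest subunit gene was 28.3-fold above the lowest in E12.5 PGCs, 12.7-fold in FGSCs, 57.2-fold in GV oocytes and 834-fold in MII oocytes. In MII oocytes the lowest, Eif3f, was under 1 FPKM, where values are least certain. MII oocytes held the lowest of the 4 values for 9 of the 13. Against GV oocytes 9 subunit genes were lower in MII oocytes, 2 were higher and 2 were within 2-fold, with a median log2 ratio of -2.47. With either scaling 9 were lower and 1 higher. Their summed FPKM was 2136, 1614, 1466 and 1201 across the 4 cell types, carried in MII oocytes by few genes.

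Eif3g (ENSMUSG00000070319, chr9:20698795-20703044 of mm9 in the tables), whose protein sits near the mRNA entry channel of the ribosome, was the highest eIF3 gene in E12.5 PGCs at 604 FPKM. It was at 321 FPKM in both FGSCs and GV oocytes and at 16.0 FPKM in MII oocytes, a log2 ratio of -4.24 between the oocytes. Eif3l was at 116, 158, 74.3 and 3.13 FPKM and Eif3f, a subunit with an MPN domain, at 33.1, 56.8, 26.5 and 0.831 FPKM, with log2 ratios of MII over GV oocytes of -4.19 and -3.91. Eif3d, which can bind the cap of certain mRNAs, was at 74.1, 82.4, 62.5 and 6.03 FPKM, and Eif3b, a core subunit, at 21.4, 59.1, 29.1 and 2.62 FPKM. These 5 genes were all at least 8-fold lower in MII than in GV oocytes on the log2(FPKM + 1) scale, and the other 4 lower genes differed less. Eif3m was at 232, 134, 125 and 21.3 FPKM and Eif3h at 188, 140, 110 and 19.0 FPKM. Eif3c, another core subunit, was at 129, 74.7, 59.6 and 18.6 FPKM, and Eif3k at 291, 294, 475 and 210 FPKM.

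The 2 eIF3 genes higher in MII oocytes were both lowest in GV oocytes. Eif3i, a subunit bound to Eif3b and Eif3g in the complex, was at 174, 124, 74.1 and 693 FPKM, with a log2 ratio of MII over GV oocytes of 3.21 that stayed at 2.08 with equal sums. Eif3e was at 192, 120, 51.4 and 131 FPKM, with a log2 ratio of 1.34 that came to 0.22 with equal sums and 0.89 with the median of ratios. Eif3f and Eif3i differed 5.25-fold in E12.5 PGCs, 2.18-fold in FGSCs, 2.80-fold in GV oocytes and 834-fold in MII oocytes, with Eif3i higher in each. Eif3a, the largest subunit, was at 52.8, 25.3, 8.30 and 10.6 FPKM, so that its lower level was already present in GV oocytes. Eif3j, a loosely bound subunit, was at 29.3, 25.4, 49.7 and 69.0 FPKM. As deposited its highest value was in MII oocytes, within 2-fold of GV oocytes. Its log2 ratio of 0.47 between the oocytes came to -0.65 with equal sums and 0.02 with the median of ratios.

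**Figure D3:**
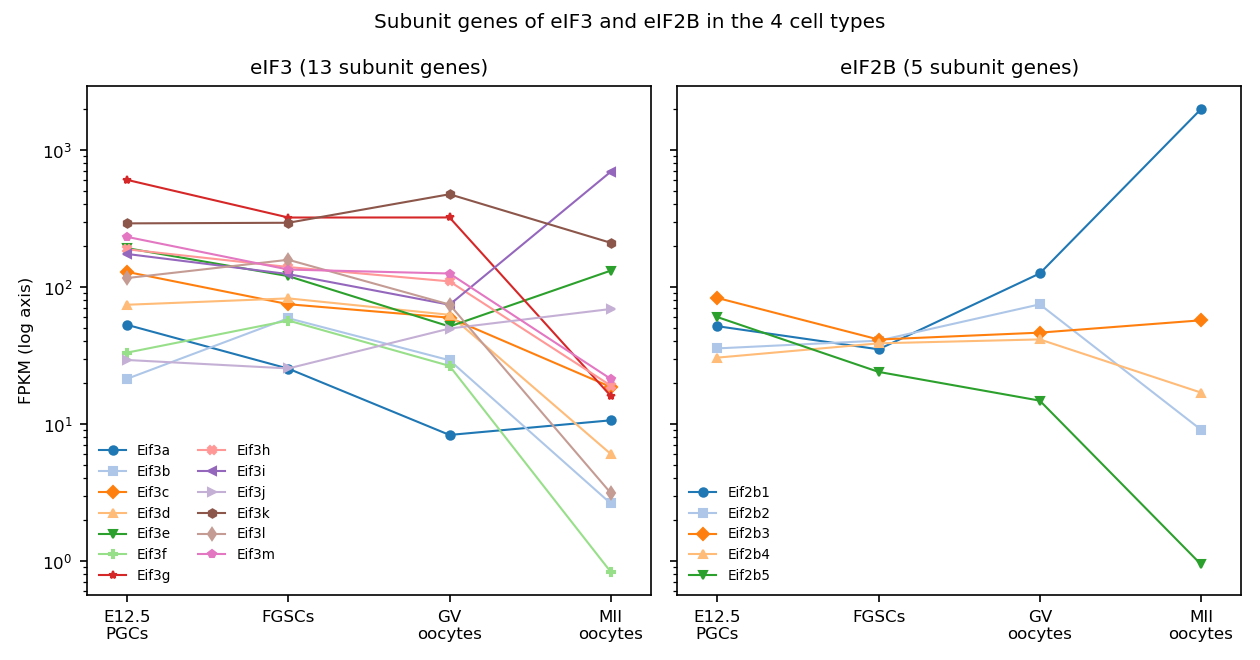
FPKM (log axis, 1 pooled value per cell type) of the 13 eIF3 subunit genes (left) and the 5 eIF2B subunit genes (right) in the 4 cell types. The lines run closest together in FGSCs and fan out in MII oocytes, where Eif3i at 693 FPKM stands above Eif3f at 0.831 FPKM and Eif2b1 at 1985 FPKM above Eif2b5 at 0.943 FPKM.

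Among the cap-binding proteins the leading gene was not the same in the 4 cell types. Eif4e, the main cap-binding factor, was at 218, 64.1, 61.4 and 161 FPKM, and its log2 ratio of 1.38 between the oocytes came to 0.25 with equal sums and 0.93 with the median of ratios. Eif4e2 (4EHP), a relative that binds the cap without eIF4G and is known as a repressor, was at 212, 113, 76.5 and 4.78 FPKM. The row named Eif4e3.1 (ENSMUSG00000093661), which carries the identifier that GENCODE M21 gives to Eif4e3, was at 2.78, 2.38, 48.4 and 385 FPKM. Of the summed FPKM of the family, Eif4e2 took 49.0%, 63.0%, 41.1% and 0.867%, and Eif4e3.1 took 0.643%, 1.32%, 26.0% and 69.9%. GV oocytes had the 3 genes at similar levels, within 1.58-fold, whereas in MII oocytes they lay 80.6-fold apart. The row named Eif4e3, which GENCODE M21 gives to a readthrough gene, was under 0.5 FPKM in every cell type. Both rows share an interval with other genes, so the division of reads between them is uncertain.

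The 4E-BPs, which hold eIF4E away from eIF4G, were carried by Eif4ebp1 and were low in MII oocytes. Eif4ebp1 (ENSMUSG00000031490, chr8:28370798-28386128 of mm9 in the tables) was at 276, 161, 105 and 6.25 FPKM, a log2 ratio of -3.87 between the oocytes. It took 98.8%, 98.7%, 91.0% and 79.1% of the summed FPKM of the 3 genes. Eif4ebp2 was at 0.184, 1.56, 5.38 and 1.65 FPKM, and Eif4ebp3 at 3.11, 0.512 and 4.98 FPKM in the first 3 cell types and listed at 0 in MII oocytes. All 3 were thus lower in MII than in GV oocytes. The level of Eif4ebp1 relative to Eif4e, a ratio free of the scaling, was 0.0388 in MII oocytes, against 1.71 in GV oocytes, and 2.51 in FGSCs, against 1.27 in E12.5 PGCs.

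**Figure D4:**
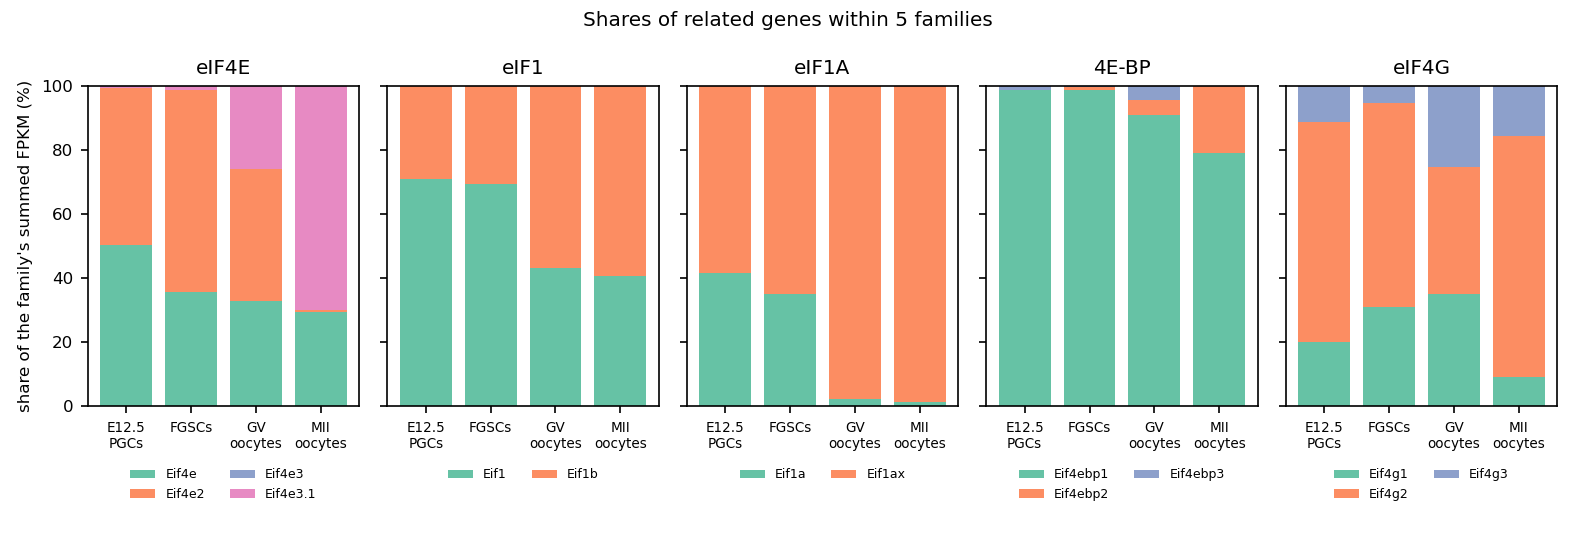
Share of each gene in the summed FPKM (%) of its family, for 5 families in the 4 cell types, 1 pooled value per cell type. In the eIF4E family Eif4e3.1 holds 69.9% in MII oocytes and 26.0% in GV oocytes; in the eIF1A pair Eif1a holds 1.17% in MII oocytes and 41.6% in E12.5 PGCs.

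Of the 3 scaffold genes Eif4g1 varied least as deposited, but most with equal sums. With equal sums its log2 ratios of FGSCs, GV and MII oocytes over E12.5 PGCs were 1.31, 0.64 and -0.89. Those of Eif4g2 were 0.59, -0.94 and 0.35, and those of Eif4g3 were -0.38, 0.99 and 0.68. Eif4g1, the main scaffold between cap and ribosome, was at 29.0, 44.4, 37.0 and 27.3 FPKM, a 1.62-fold range over the 4 cell types, with a log2 ratio of -0.42 between the oocytes that came to -1.53 with equal sums. Eif4g2 (DAP5), which lacks the site for eIF4E and serves initiation without the cap, was at 99.1, 91.0, 41.9 and 227 FPKM. Eif4g3 was at 16.0, 7.38, 26.6 and 46.9 FPKM. Eif4g2 was 1.13-fold above Eif4g1 in GV oocytes and 8.28-fold above it in MII oocytes, and its log2 ratio of 2.41 between the oocytes stayed at 1.29 with equal sums.

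The helicase genes and their cofactors went in opposite directions in MII oocytes. Eif4a1, the main RNA helicase of the cap complex, was at 484, 611, 309 and 1439 FPKM, and its paralog Eif4a2 at 88.0, 80.5, 28.8 and 318 FPKM. Both were higher in MII than in GV oocytes, with log2 ratios of 2.22 and 3.42 that stayed at 1.08 and 2.30 with equal sums. Their intervals hold 3 and 6 other genes, and the pseudogene row Eif4a-ps4, at 6.42, 7.98, 5.54 and 29.5 FPKM, may share reads with Eif4a1. Eif4h and Eif4b, which encode cofactors of the helicase, were lower in MII oocytes. Eif4h was at 28.1, 136, 51.2 and 3.20 FPKM and Eif4b at 28.5, 39.7, 28.9 and 10.8 FPKM. Eif4a3, which serves in the exon junction complex rather than in initiation, was at 132, 119, 136 and 91.6 FPKM, a 1.48-fold range that was the narrowest among the 52 members, although its log2 ratio of -0.56 between the oocytes came to -1.69 with equal sums.

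Of the remaining genes, Eif5a, which is known mainly for helping ribosomes through difficult stretches of elongation, was among the highest in each cell type at 1151, 1201, 580 and 1047 FPKM. Eif5a2, its close relative, was at 0.648, 1.43, 3.27 and 0.205 FPKM. Eif5b, which joins the large subunit to the initiation complex, was at 37.0, 16.0, 12.3 and 54.6 FPKM. Eif6, which keeps the large subunit from joining too early, was at 133, 97.1, 262 and 36.1 FPKM, a log2 ratio of MII over GV oocytes of -2.82. Eif5b was higher in MII than in GV oocytes by 2.06 on the log2 scale, which came to 0.98 with equal sums. The pseudogene rows Eif3s6-ps1 and Eif3s6-ps2 were listed at 0 in all 4 cell types, and Eif5al3-ps reached 0.0965 FPKM in FGSCs alone.

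The members that separated FGSCs from E12.5 PGCs were few. Eif4h was the highest by log2 ratio at 2.23, with 136 FPKM in FGSCs against 28.1 in E12.5 PGCs. Eif3b followed with 59.1 against 21.4 FPKM (log2 ratio 1.43), and Eif2ak4 and Eif4ebp2 were higher at levels under 2 FPKM. These 4 kept a log2 ratio of at least 1 under both scalings. The scalings moved this comparison up, by 0.72 and 0.20, so that a higher call could hardly be lost by them. The 8 lower members were Eif4e (64.1 FPKM in FGSCs against 218 in E12.5 PGCs, log2 ratio -1.75), Eif2a, Eif4ebp3, Eif2s1, Eif2b5, Eif5b, Eif3a and Eif4g3. Only 2 of the 8 were at least 2-fold lower under both scalings, with Eif2a, Eif2b5, Eif2s1, Eif3a, Eif4g3 and Eif5b losing the call.

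Between GV oocytes and the earlier cell types the widest differences were in single genes of several roles. The largest log2 ratios of GV oocytes over E12.5 PGCs were 3.71 for Eif4e3.1 and 3.54 for Eif1b, and the lowest were -3.56 for Eif2s1 and -3.33 for Eif1a. In eIF3, as deposited, none of the 13 genes was higher in GV oocytes and 4 were lower, both against E12.5 PGCs and against FGSCs. Of all symbols 29.5% and 24.6% were higher and 26.9% and 24.5% lower. With equal sums the log2 ratios over E12.5 PGCs came to 1.04 for Eif3j, 1.00 for Eif3k, -0.81 for Eif3c and -0.93 for Eif3i, so these 4 calls changed. Over FGSCs those of Eif3b and Eif3i came to -1.43 and -1.16, past 2-fold lower. Both scalings moved the log2 ratio of GV oocytes over E12.5 PGCs up, by 0.30 and 0.11, so that a higher call could hardly be lost. All 11 genes higher against E12.5 PGCs stayed higher under both scalings, and 12 of the 15 lower ones stayed lower.

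**Figure D5:**
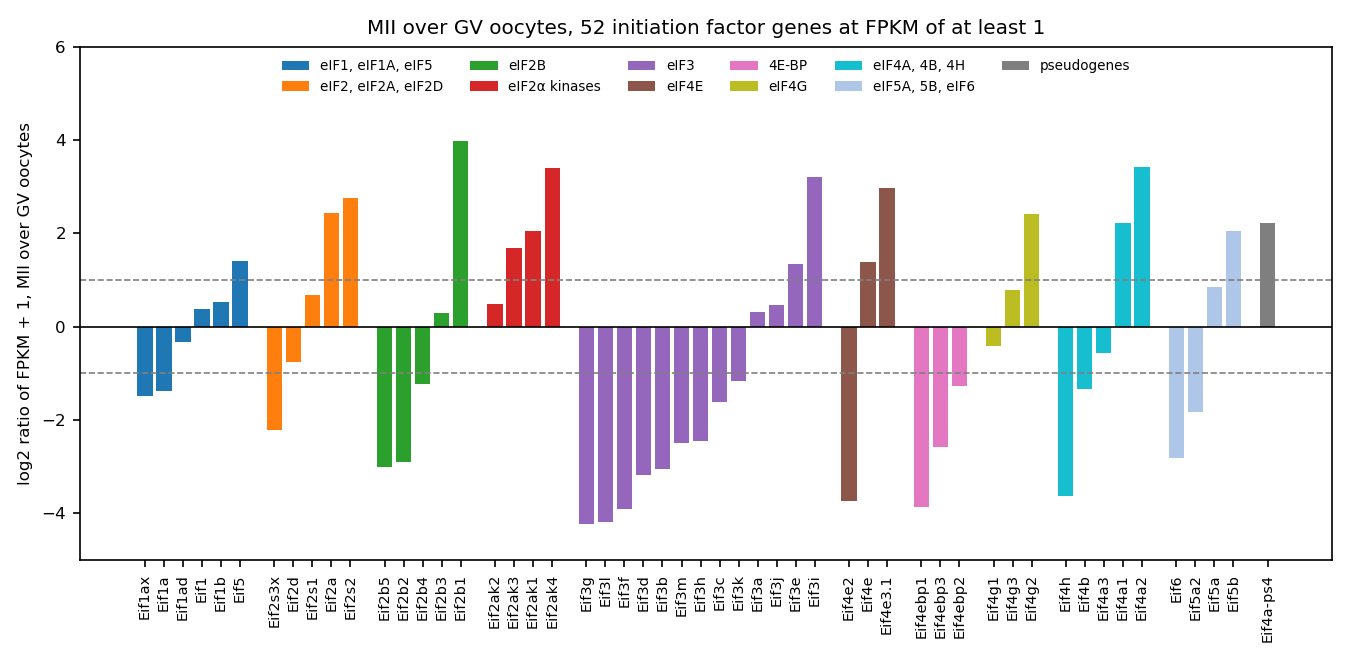
Log2 ratio of FPKM + 1, MII over GV oocytes, for the 52 initiation factor genes at FPKM of at least 1, grouped and coloured by role, with dashed lines at 2-fold. In eIF3 9 of 13 bars lie below the lower line, in the 4E-BPs all 3 (Eif4ebp3 is listed at 0 in MII oocytes), and the highest bar is Eif2b1 at 3.97.

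The 3′ ends of the members' transcripts were examined for the cytoplasmic polyadenylation element, written here as TTTTAT or TTTTAAT, which binds CPEB and is known to direct tail lengthening during oocyte maturation in frog and mouse. This search was added after the values had been seen. In GENCODE M21 (GRCm38), 46 of the 52 members had a coding transcript with an annotated 3′ UTR of at least 100 bases, and the last 100 bases were searched on the transcript's strand. The element stood in 3 of the 46 (6.52%), against 2499 of 12876 symbols (19.4%). Over all symbols it stood in 28.4% of those higher in MII than in GV oocytes, 17.2% of those within 2-fold and 11.1% of those lower. Among members the counts were 1 of 14 higher, 0 of 13 within 2-fold and 2 of 19 lower. Most of the members that were higher in MII oocytes thus lacked these letters in that window, and the annotated end may not be the end that oocytes use. The hexamers AATAAA or ATTAAA stood in 80.4% of the 46 members and 82.0% of all symbols. The median 3′ UTR was 1146 bases for members higher in MII oocytes and 983 bases for those lower, against 1231 and 660 bases over all symbols.

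The 30 bases around the element, in capitals, are shown for the member that was higher in MII oocytes and for 1 that was lower, 5′ to 3′ on the transcript. The site of Eif4e3.1 is at chr6:99625215-99625244 (-) in the 3′ UTR and begins 98 bases before the annotated end, and that of Eif1ax is at chrX:159389887-159389916 (+) in the 3′ UTR and begins 30 bases before the end. The third member with the element was Eif1a.
Eif4e3.1: attttgagaaaaTTTTATttttgaacttta
Eif1ax: attcagtggatgTTTTATgctgcacaaata

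Genes of neighbouring steps were counted in the same way in MII relative to GV oocytes, beside the 33.6% higher and 26.1% lower of all symbols. Of 8 elongation factor genes 1 was higher and 6 were lower, with Eef1a1, which brings aminoacyl-tRNA to the ribosome, at 45.4 FPKM in MII oocytes against 856 in GV oocytes. Eef1g, a subunit of its exchange factor, was at 5.27 against 48.2 FPKM, while Eef1b2, another subunit, was at 176 against 154 FPKM. Of 7 genes of poly(A)-binding proteins and their partners 1 was higher and 2 were lower, with Paip1, which stimulates initiation through poly(A)-binding protein and eIF4A, at 1111 FPKM in MII oocytes against 89.5 in GV oocytes. Paip2, which inhibits poly(A)-binding protein, was at 119 against 175 FPKM, and Pabpc4, a poly(A)-binding protein, at 218 against 235 FPKM. Of 8 further initiation and reinitiation genes 2 were higher and 4 lower, with the helicase gene Ddx3x at 233 against 30.2 FPKM and Denr, a reinitiation factor, at 30.4 against 90.0 FPKM. Abce1, which recycles ribosomes, was at 2.57 against 3.44 FPKM. Of 6 termination and rescue genes 1 was higher (Hbs1l, 50.0 against 11.4 FPKM) and 2 were lower (Pelo, 5.95 against 21.8 FPKM, and N6amt1, 0.678 against 2.74 FPKM). The release factor genes Etf1, Gspt1 and Gspt2 were at 14.6, 19.0 and 31.5 FPKM in MII oocytes, against 8.13, 28.0 and 15.5 FPKM in GV oocytes.

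Genes of the pathways upstream of initiation were counted too. Of 12 genes of the integrated stress response, which acts through phosphorylated eIF2 alpha, 1 was higher and 5 were lower in MII than in GV oocytes. Atf4, its main transcription factor, was at 55.8 FPKM in MII oocytes against 83.5 in GV oocytes, and Ppp1r15a, a phosphatase subunit that restores eIF2, at 112 against 62.8 FPKM. Asns, asparagine synthetase and a target of Atf4, was at 2.09 against 1.51 FPKM, far under its 148 FPKM in E12.5 PGCs. Of 12 genes of mTOR and the cap-complex kinases 4 were higher and 4 lower. Mknk1, a kinase of eIF4E, was at 304 FPKM in MII oocytes against 29.3 in GV oocytes, Rheb, the activator of mTOR, at 400 against 76.1 FPKM, and Akt1s1, an inhibitor of mTOR complex 1, at 5.64 against 106 FPKM. Eif4e1b and Eif4enif1, oocyte partners of the cap complex that the naming rule leaves out, were at 53.9 and 185 FPKM in MII oocytes, against 196 and 102 FPKM in GV oocytes.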

How the data were processed

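RNA was sequenced from 9 libraries of 4 cell types. Gene expression was given by the authors as FPKM, and the submitters' processing notes name TopHat2, Cufflinks 2.2.1 and the build mm9, where the study's methods name Trimmomatic, RefSeq genes and mm10. The coordinates in the deposited tables are those of mm9. Each of 6 deposited tables holds 1 pooled FPKM value per gene for each of 2 cell types, and the values of a cell type were identical in all tables. The tables also hold the authors' log2 fold change, test statistic, p-value, q-value and significance call, which were not used.

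Every member may be named. From each list of related pathways, the 3 genes with the highest FPKM in any cell type, and every gene of a list of 6 or fewer, are named. From the marker lists Ddx4, Dazl, Zp3 and Hbb-y are named, with Dppa3, Inha, Cyp19a1 and Wt1 added after their values had been seen. The members and lists were chosen with earlier results of these data known. Symbols with repeated rows kept the row with the highest maximum. Ratios were computed as log2(FPKM + 1) with Python 3.11.15, pandas 2.3.3 and numpy 2.4.6, and figures with matplotlib 3.10.9. The counting was tested on simulated data. Transcripts and gene types came from GENCODE M21, and promoters from RefSeq. The tables give no depth, so no precision from depth could be given. Alternatives covered the pseudocount, the filter, the threshold, the scaling, repeated symbols and pseudogenes.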

Additional observations from a re-analysis of the deposited data

How the results depend on the processing

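The 12 counts of higher and lower members were recomputed under 9 alternatives. A pseudocount of 0.1, no filter, a filter at 5 FPKM, repeated symbols summed, pseudogenes left out and, chosen after seeing the data, the 2 Eif4e3 rows summed moved no count of members by over 1.5 times. The shares of all symbols did move. In the main setting 23 of 52 members and 26.1% of all symbols were lower in MII than in GV oocytes. With a pseudocount of 0.1 these were 23 of 52 and 34.0%. With a filter at 5 FPKM they were 21 of 49 and 29.9%, and with no filter 23 of 57 and 12.2%. With a 1.5-fold threshold FGSCs against E12.5 PGCs had 7 higher and 20 lower members (28.6% and 27.6% of all symbols), and GV oocytes had 23 lower against E12.5 PGCs and 19 lower against FGSCs (34.1% and 34.2%). With every cell type scaled to a sum of 1000000, FGSCs had 14 higher and 2 lower against E12.5 PGCs (34.0% and 8.25% of all symbols), GV oocytes 19 lower against FGSCs (34.9%), and MII oocytes 8 higher against FGSCs (24.9%) and 10 higher against GV oocytes (21.3%). With the median of ratios FGSCs had 5 lower against E12.5 PGCs (13.5%). Each scaling moves all ratios of FPKM in a comparison together. With 1 FPKM added after it, the log2 ratios of genes at low FPKM move less. The part of this in the counts was not tested. The median log2 ratio of FGSCs over E12.5 PGCs was 0.46 with equal sums, where that of all symbols was 0.42. With equal sums the members' medians were -0.14 for GV oocytes over E12.5 PGCs, -0.71 for GV oocytes over FGSCs, and -1.36, -1.86 and -1.47 for MII oocytes over E12.5 PGCs, FGSCs and GV oocytes. Those of all symbols, in the same order, were 0.21, -0.31, -0.01, -0.90 and -0.43. With the median of ratios the members' 3 medians of MII oocytes were -0.87, -0.86 and -0.81, beside 0.04, -0.15 and -0.05 over all symbols. With no filter the median of MII over GV oocytes was 0 for members and for all symbols. No paired analysis was possible because the tables hold 1 pooled value per cell type, and for the same reason no library could be left out in turn. The tables give no depth, so values under about 1 FPKM are the least certain.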
